A study of Homo sapiens with 12 samples.

Results

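The genes described here are 10 members of the transforming growth factor beta (TGF-beta) and bone morphogenetic protein (BMP) pathway. They are the ligand genes TGFB1, TGFB2, TGFB3 and BMP7, the inhibitor of DNA binding genes ID1, ID2, ID3 and ID4, and the inhibitory SMAD genes SMAD6 and SMAD7. They were chosen by gene symbol, with earlier results of these data known, and make up 10 of the 20114 genes in the table. All 10 passed the filter on low counts that left 13872 genes to test.

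TGF-beta and BMP ligands are secreted dimers that bring type I and type II receptor kinases together. The receptors phosphorylate SMAD proteins, which enter the nucleus and switch genes on or off, in epithelial cells often those that restrain division. The ID genes are among the best known BMP targets, and their proteins are helix-loop-helix factors without the basic region that contacts DNA, so they bind E proteins and keep them off their sites. SMAD6 and SMAD7 are induced by the pathway and block it at the receptors, as negative feedback.

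T47D, a human luminal breast carcinoma line that carries the progesterone receptor, was serum-starved and then given vehicle, 100 pM or 10 nM of a progestin, a ligand of that receptor. The labels do not name the progestin. RNA was taken at 6 h and at 18 h, and each of the 6 groups had 2 libraries, numbered replicate 1 and replicate 3. All groups are the same line, and the labels do not give the 2 libraries of a group as separate cultures, so the p-values reflect the spread of these samples alone, which may be technical. In RNA from whole wells, fewer cells expressing a gene and less of its RNA per cell cannot be told apart.

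Libraries held 34204970 to 41373890 counts, and mitochondrially encoded genes took 6.69% to 10.8% of them, more in replicate 3 than in replicate 1 of every group. The 8 luminal markers looked up were present in every library, KRT8 at 913 to 2500 CPM (read counts scaled to library size). Their summed level was 6938 to 6985 CPM at 10 nM for 6 h, against 11300 to 11400 CPM in vehicle, and 5215 to 5336 CPM at 10 nM for 18 h, against 10740 to 11420 CPM in vehicle. At 10 nM 6 of the 8 fell at each time, at an edgeR adjusted p under 0.05 (75%, against 19.4% of all tested genes lower at 6 h and 15.2% at 18 h). At 100 pM 0 of the 8 were called at 6 h and 3 fell at 18 h (37.5%, against 3.89% of all tested genes). These were PGR (-1.66 ± 0.29), ESR1 (-0.85 ± 0.19) and GATA3 (-0.48 ± 0.10). The GATA3 call was lost without 100 pM replicate 3, without either vehicle library and in a fit to 18 h alone (log2 fold changes -0.49 to -0.42). Immune and endothelial markers were low: the immune marker PTPRC and the endothelial marker CDH5 reached at most 0.127 and 0.0282 CPM, with 0 counts in 5 and 11 of the 12 libraries. The 3 basal markers summed to 5.88 to 9.05 CPM at 10 nM for 18 h, against 1.46 to 2.13 CPM in vehicle, and KRT14 had 0 counts in 3 libraries. Of these KRT5 rose at 10 nM, with 55 and 71 counts against 0 and 1 in vehicle at 6 h (edgeR adjusted p = 0.00124) and 82 and 250 counts against 3 and 2 at 18 h (0.000795), and TP63 fell at 6 h (log2 fold change -2.12, adjusted p = 0.00306). The 4 fibroblast markers summed to 106.5 to 117.9 CPM in vehicle, 94.8 to 113.7 CPM at 100 pM and 109 to 113.5 CPM at 10 nM for 6 h, and to 115.3 to 119.7, 82.0 to 82.6 and 72.3 to 80.6 CPM at the same doses for 18 h. Most of this was COL1A1 (66.1 to 114 CPM), which fell at 18 h (-0.52 at 100 pM, adjusted p = 0.0134, and -0.63 at 10 nM, 0.00150), the first call being lost without 100 pM replicate 3, without either vehicle library and in a fit to 18 h alone (0.0618 to 0.0863). COL3A1 stood at 0.603 to 9.48 CPM, with the replicate 3 library of each group above that of replicate 1, DCN reached at most 0.650 CPM, and PDGFRB rose at 10 nM for 6 h (15 and 15 counts, against 1 and 0 in vehicle, adjusted p = 0.0102, and 0.0672 without vehicle replicate 3). The part of these marker changes in the results below was not tested.

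The sequences just before the start sites of ID1, ID2, ID3 and TGFB2 are shown because these genes gave the largest falls among the members against vehicle at 10 nM for 6 h or, for ID2, the only rise. Each is the 250 bases upstream of the start in the RefSeq promoter table (build GRCh38.p14, whereas the reads were aligned to hg19), 5′ to 3′ on the gene's own strand. Capitals mark the SMAD box CAGAC and the hexamer TGTTCT (one arm of the site that steroid receptors bind) on either strand.
ID1: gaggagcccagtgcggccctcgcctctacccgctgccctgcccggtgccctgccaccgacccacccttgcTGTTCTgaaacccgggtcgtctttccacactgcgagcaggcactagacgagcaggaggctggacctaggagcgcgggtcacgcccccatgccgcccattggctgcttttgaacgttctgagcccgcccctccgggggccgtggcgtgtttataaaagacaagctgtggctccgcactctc
ID2: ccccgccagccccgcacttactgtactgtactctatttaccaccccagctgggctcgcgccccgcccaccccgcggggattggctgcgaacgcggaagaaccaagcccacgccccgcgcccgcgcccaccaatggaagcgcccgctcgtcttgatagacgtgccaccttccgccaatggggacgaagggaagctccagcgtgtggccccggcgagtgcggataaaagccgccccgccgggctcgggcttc
ID3: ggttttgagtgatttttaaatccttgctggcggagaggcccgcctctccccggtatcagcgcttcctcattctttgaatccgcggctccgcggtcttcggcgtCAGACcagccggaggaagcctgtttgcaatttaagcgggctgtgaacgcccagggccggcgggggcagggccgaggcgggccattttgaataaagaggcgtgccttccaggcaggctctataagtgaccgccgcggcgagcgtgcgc
TGFB2: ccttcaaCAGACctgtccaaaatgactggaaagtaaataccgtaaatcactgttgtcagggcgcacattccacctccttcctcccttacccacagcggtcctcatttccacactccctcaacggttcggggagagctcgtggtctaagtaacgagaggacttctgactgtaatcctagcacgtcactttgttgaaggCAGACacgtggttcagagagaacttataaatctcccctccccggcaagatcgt
The windows lie at chr20:31605039-31605288 on the plus strand (ID1), chr2:8681806-8682055 on the plus strand (ID2), chr1:23559502-23559751 on the minus strand (ID3) and chr1:218345086-218345335 on the plus strand (TGFB2). Bases shortly after the start were looked for in the first part of the GENCODE v29 transcripts of the same gene. They were found for ID1, ID2 and ID3 and not for TGFB2, so the TGFB2 start is less certain. TGFB2 held 2 SMAD boxes, 243 and 53 bases before the start, and ID3 held 1, at 147 bases. ID1 held 1 such hexamer, 180 bases before the start, and the ID2 window held neither motif. Of all 35114 promoter windows of this length, 38% held a SMAD box and 12.4% the hexamer. Among the other members in the table, TGFB3, ID4 and SMAD7 held a SMAD box and TGFB3 and SMAD6 the hexamer. The BMP-associated element GGCGCC (16.4% of windows) was in none of the 9 members' windows. A full steroid receptor site (GNACA and TGTNC, 3 bases apart, 0.328% of windows) was also in none of them. These are matches of letters and no measurement of binding.

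At 10 nM nearly all of these genes fell. Against vehicle at 6 h, 8 of the 10 fell and 1, ID2, rose. Over all tested genes 19.4% were lower and 22.6% higher, at an edgeR adjusted p under 0.05 (quasi-likelihood F test, adjusted over the 13872 genes), the rule for every call below. At 18 h 8 of 10 fell and none rose, where 15.2% of tested genes were lower and 19% higher. At 100 pM 2 of 10, TGFB2 and SMAD7, fell at each time and none rose. The background at 100 pM was 0.606% lower and 2.88% higher at 6 h, and 3.89% lower and 6.57% higher at 18 h. Because the members were chosen with earlier results of these data known, these shares describe them and are no test of the set. The median log2 fold change of the 10 genes against vehicle was -1.37 at 10 nM and -0.71 at 100 pM for 6 h, and -1.39 at 10 nM and -0.69 at 100 pM for 18 h, while the median of all tested genes lay between -0.03 and 0.00.

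The 2 calls at 100 pM for 6 h rest on few libraries. None was left without 100 pM 1, without 100 pM 3 or without vehicle 1 (dose and replicate number at that time), and 1 was left without vehicle 3. None was called in a fit to the 6 libraries of 6 h alone. DESeq2 called 2, edgeR with replicate number as a block called 4, and 4 genes had an unadjusted p under 0.05 in edgeR. Over all genes, 13872 of them tested in edgeR, these counts were 836, 1696 and 1639. For the same dose at 18 h the block gave 5 calls among the members and 4728 over all tested genes. The other counts against vehicle stayed within a factor of 1.5 when any 1 library was left out.

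**Figure D1:**
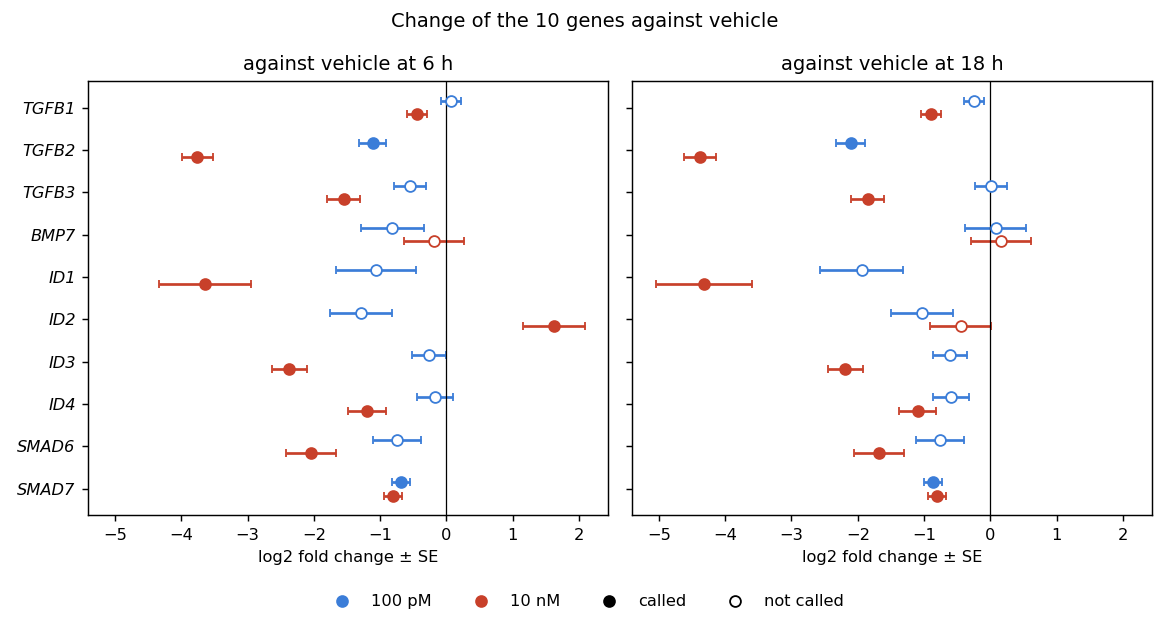
Log2 fold change against vehicle with its SE (x axis) for each of the 10 genes (y axis) at 6 h (left) and 18 h (right), for 100 pM (blue) and 10 nM (red), where filled points passed the test. TGFB2 and ID1 lie farthest left at 10 nM, ID2 lies right of 0 at 10 nM for 6 h, and the SMAD7 points of both doses lie side by side.

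Of the ligand genes, TGFB2, which encodes a TGF-beta isoform, moved most and at every dose and time. At 6 h it measured 81.7 and 62.5 CPM in vehicle, 36.7 and 29.8 CPM at 100 pM and 6.12 and 4.51 CPM at 10 nM (replicates 1 and 3, here and below). After 18 h its level was 100.3 and 70.8 CPM in vehicle, 20.0 and 19.7 CPM at 100 pM and 4.30 and 3.90 CPM at 10 nM. The 3 levels did not overlap at either time and stood in the order of dose. At 10 nM TGFB2 was 13.5-fold lower than in vehicle at 6 h (log2 fold change -3.76 ± 0.24 SE, edgeR adjusted p = 8.43e-06) and 20.8-fold lower at 18 h (-4.38 ± 0.24, adjusted p = 7.37e-06). At 100 pM it was 2.16-fold lower at 6 h (-1.11 ± 0.21, adjusted p = 0.0206) and 4.31-fold lower at 18 h (-2.11 ± 0.21, adjusted p = 0.000690). The call at 100 pM for 6 h was lost without 100 pM 1 (adjusted p = 0.0596), without 100 pM 3 (0.149), without vehicle 1 (0.150) and with 6 h alone (0.0615). With the replicate block the call at 100 pM for 6 h held (-1.11, edgeR adjusted p = 7.86e-06). The other 3 TGFB2 calls against vehicle held in every alternative run.

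TGFB3, another isoform, had the highest level per exon length of the ligand genes and fell at the higher dose. At 6 h it measured 164 and 216 CPM in vehicle, 108 and 152 CPM at 100 pM and 55.6 and 74.5 CPM at 10 nM. At 18 h it measured 163 and 202 CPM in vehicle, 169 and 201 CPM at 100 pM and 42.8 and 58.7 CPM at 10 nM. The 10 nM libraries lay below all others of their time, and at 18 h the 100 pM libraries lay among the vehicle libraries. The fall at 10 nM was 2.92-fold at 6 h (-1.55 ± 0.25, edgeR adjusted p = 0.00121) and 3.60-fold at 18 h (-1.85 ± 0.25, adjusted p = 0.000627). At 100 pM the log2 fold change was -0.55 ± 0.24 at 6 h (adjusted p = 0.420, and -0.56 with adjusted p = 0.000122 with the replicate block) and 0.01 ± 0.24 at 18 h (adjusted p = 0.983). In each of the 6 groups TGFB3 was higher, and TGFB2 lower, in replicate 3 than in replicate 1.

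TGFB1, the isoform most studied in carcinoma cells, had the smallest fall of the 3 isoforms at 10 nM at both times. It measured 18.9 and 21.9 CPM in vehicle, 22.1 and 20.6 CPM at 100 pM and 15.5 and 14.4 CPM at 10 nM for 6 h. The 18 h values were 23.4 and 18.9 CPM in vehicle, 19.4 and 16.2 CPM at 100 pM and 12.4 and 10.4 CPM at 10 nM. The 10 nM libraries were lowest at both times, and the 100 pM libraries overlapped vehicle at both. At 10 nM the fall was 1.36-fold at 6 h (-0.45 ± 0.15, edgeR adjusted p = 0.0427) and 1.86-fold at 18 h (-0.89 ± 0.15, adjusted p = 0.00231). The 6 h call was lost without 10 nM 1 (adjusted p = 0.0965), without 10 nM 3 (0.167), without vehicle 1 (0.0548) and without vehicle 3 (0.218). At 100 pM the log2 fold change was 0.06 ± 0.15 at 6 h (adjusted p = 1) and -0.25 ± 0.15 at 18 h (adjusted p = 0.360). By whole gene span, TGFB1 overlaps HNRNPUL1, CCDC97 and TMEM91, and TGFB3 overlaps IFT43, on the opposite strand in GENCODE v29. The strand setting of the counts is not given in the sources used here. How reads from any exon stretch shared by such a pair were counted is therefore not known.

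BMP7, a BMP ligand, was barely detected, with 18 to 49 counts per library (0.490 to 1.33 CPM). It passed no test against vehicle, with log2 fold changes of -0.81 ± 0.47 at 100 pM and -0.19 ± 0.46 at 10 nM for 6 h (edgeR adjusted p = 0.637 and 0.766) and 0.08 ± 0.45 and 0.16 ± 0.45 for 18 h (adjusted p = 0.940 and 0.822). The 95% intervals at 10 nM, from -1.23 to 0.85 at 6 h and from -0.87 to 1.19 at 18 h, leave room for changes of about 2-fold either way.

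Per kilobase of exon, the only scale here that sets genes beside each other, TGFB3 was highest of the ligand genes in vehicle at 6 h (38.7 ± 7.52 CPM per kb, SD, n = 2). TGFB2 followed at 14.0 ± 2.63, TGFB1 at 6.30 ± 0.650 and BMP7 at 0.177 ± 0.00247 CPM per kb. At 100 pM for 6 h TGFB1 (6.59 ± 0.337 CPM per kb) and TGFB2 (6.46 ± 0.947) differed by less than their SD. At 10 nM for 6 h the order of these 2 was turned, with TGFB1 at 4.62 ± 0.249 and TGFB2 at 1.03 ± 0.220 CPM per kb, and TGFB3 stayed highest at 13.2 ± 2.72 CPM per kb. Exon lengths are the merged exons of GENCODE v29, which may differ from the annotation used for counting.

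**Figure D2:**
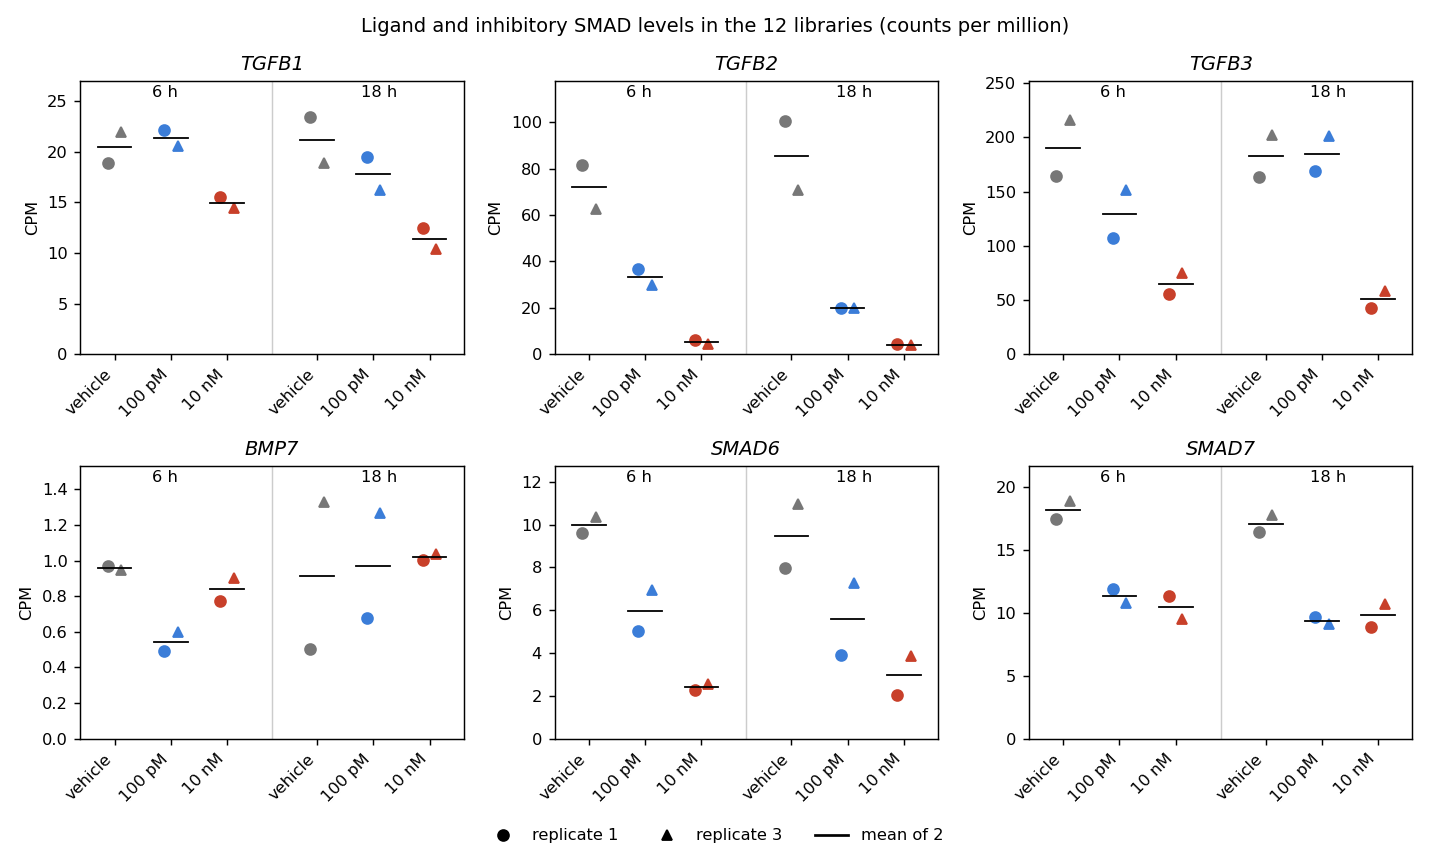
Levels in CPM (y axis, linear, from 0) of the 4 ligand genes and 2 inhibitory SMAD genes in each of the 12 libraries by dose and time (x axis), with circles for replicate 1, triangles for replicate 3 and a line at the mean of 2. TGFB2 steps down with dose at both times, TGFB3 at 100 pM for 18 h lies with vehicle, and SMAD7 is at about the same level at 100 pM and 10 nM.

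ID1, ID3 and ID4 fell at 10 nM, and ID2 alone of the 4 rose there at 6 h. ID1, a BMP target that holds back differentiation in many epithelia, measured 16.3 and 34.1 CPM in vehicle, 10.5 and 13.7 CPM at 100 pM and 2.10 and 1.92 CPM at 10 nM for 6 h. After 18 h the values were 16.5 and 39.8 CPM in vehicle, 3.09 and 11.6 CPM at 100 pM and 1.21 and 1.60 CPM at 10 nM. The 3 levels did not overlap at either time, although the vehicle libraries and the 100 pM libraries at 18 h differed widely between replicates. At 10 nM ID1 was 12.5-fold lower than vehicle at 6 h (-3.65 ± 0.69, edgeR adjusted p = 0.00305) and 20.0-fold lower at 18 h (-4.32 ± 0.72, adjusted p = 0.00201). Both calls held when any 1 library was left out, but the log2 fold change became -3.02 at 6 h and -3.55 at 18 h without vehicle 3. The values at 100 pM were -1.06 ± 0.61 at 6 h (adjusted p = 0.630) and -1.94 ± 0.63 at 18 h (adjusted p = 0.0896). The 18 h value was called by DESeq2 (-1.91, adjusted p = 0.0117), with the replicate block (-1.98, adjusted p = 0.00207) and without 100 pM 3 (-3.19, adjusted p = 0.0392), and it was -1.17 (adjusted p = 0.380) without vehicle 3.

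ID3, another BMP target of the family, fell at 10 nM. In vehicle it measured 51.3 and 50.6 CPM, at 100 pM 48.8 and 36.0 CPM and at 10 nM 12.9 and 6.85 CPM for 6 h. For 18 h it measured 52.1 and 64.7 CPM in vehicle, 38.5 and 37.9 CPM at 100 pM and 13.4 and 12.2 CPM at 10 nM. No groups of a time overlapped, and the larger step lay between 100 pM and 10 nM. The fall at 10 nM was 5.16-fold at 6 h (-2.37 ± 0.27, edgeR adjusted p = 0.000199) and 4.56-fold at 18 h (-2.19 ± 0.27, adjusted p = 0.000361), and it held in every alternative run. At 100 pM the values were -0.27 ± 0.25 at 6 h (adjusted p = 0.908) and -0.61 ± 0.25 at 18 h (adjusted p = 0.170, and 0.0465 with the replicate block).

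ID4, the family member with the lowest level here, had 45 to 162 counts per library. It measured 3.46 and 2.84 CPM in vehicle, 2.99 and 2.63 CPM at 100 pM and 1.47 and 1.27 CPM at 10 nM for 6 h. At 18 h the values were 2.80 and 4.39 CPM in vehicle, 2.03 and 2.73 CPM at 100 pM and 1.87 and 1.49 CPM at 10 nM. The 10 nM libraries were lowest at both times, and 100 pM overlapped vehicle at 6 h. ID4 fell 2.30-fold at 10 nM for 6 h (-1.20 ± 0.28, edgeR adjusted p = 0.00881) and 2.14-fold for 18 h (-1.10 ± 0.28, adjusted p = 0.0156). The 6 h call was lost without 10 nM 3 (adjusted p = 0.0628) and without vehicle 1 (0.0508). The 18 h call was lost without 10 nM 3 (0.0933), without vehicle 3 (0.117) and with 18 h alone (0.0591). At 100 pM the values were -0.17 ± 0.27 and -0.60 ± 0.27 at 6 h and 18 h (adjusted p = 0.986 and 0.213).

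ID2, which in the mouse is needed for the mammary gland to branch and make milk in pregnancy, gave a different pattern. At 6 h it measured 12.7 and 18.1 CPM in vehicle, 5.68 and 6.94 CPM at 100 pM and 62.5 and 32.4 CPM at 10 nM. At 18 h it measured 13.2 and 20.3 CPM in vehicle, 5.74 and 10.7 CPM at 100 pM and 16.7 and 7.89 CPM at 10 nM. At 6 h the 100 pM libraries lay below vehicle and the 10 nM libraries above it, and at 18 h 100 pM lay below vehicle while 10 nM overlapped both. ID2 rose 3.08-fold at 10 nM for 6 h (1.62 ± 0.46, edgeR adjusted p = 0.0212). That call was lost without 10 nM 1 (log2 fold change 1.07, adjusted p = 0.148), without vehicle 1 (1.39, 0.116) and without vehicle 3 (1.90, 0.0541). At 100 pM the value was -1.29 ± 0.47 at 6 h (adjusted p = 0.286) and -1.03 ± 0.47 at 18 h (adjusted p = 0.209), so the fall below vehicle did not pass the test. At 10 nM for 18 h it was -0.45 ± 0.46 (adjusted p = 0.497).

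**Figure D3:**
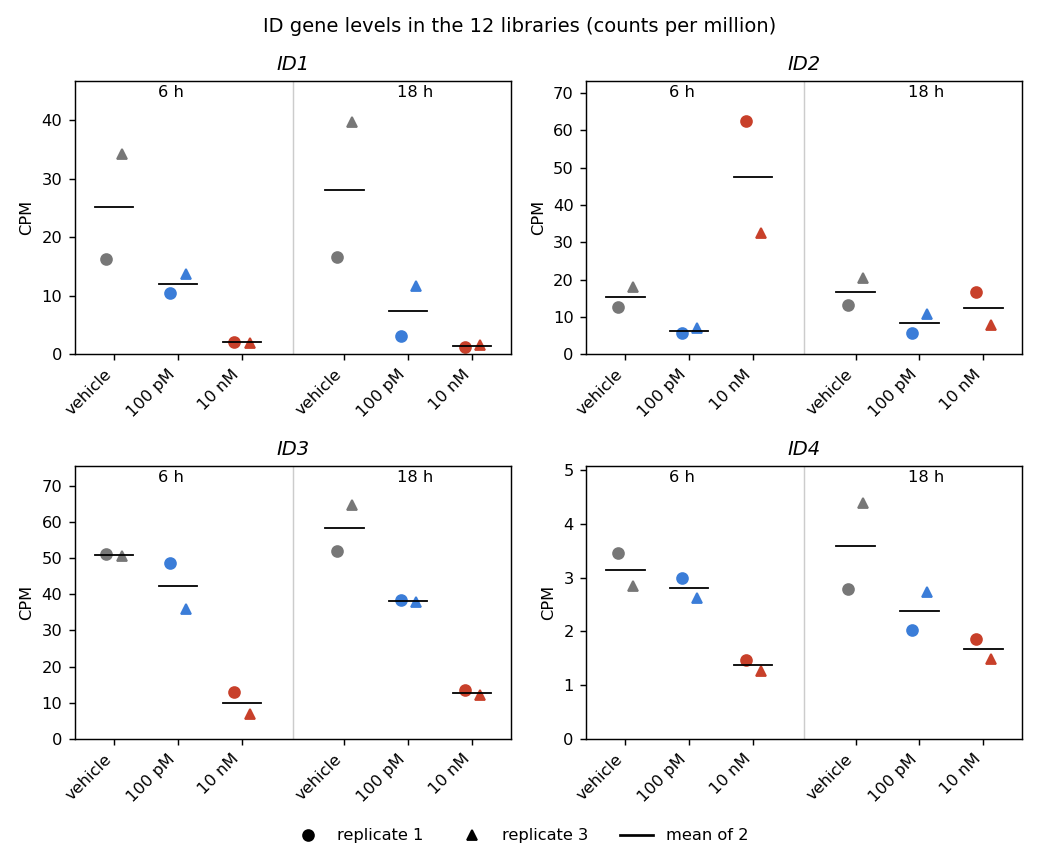
Levels in CPM (y axis, linear, from 0) of the 4 ID genes in each of the 12 libraries by dose and time (x axis), with circles for replicate 1, triangles for replicate 3 and a line at the mean of 2. The means of ID1 and ID3 step down with dose, but against vehicle only 10 nM passed the edgeR test for these genes. ID2 stands at 62.5 and 32.4 CPM at 10 nM for 6 h, above every other library.

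Per kilobase of exon the leading ID gene changed with dose at 6 h. In vehicle ID3 stood at 28.4 ± 0.243 CPM per kb (SD, n = 2) and ID1 at 20.5 ± 10.2, a gap smaller than the SD of ID1, with ID2 at 6.98 ± 1.73 and ID4 at 1.34 ± 0.186 CPM per kb. At 100 pM ID3 led with 23.6 ± 5.04 CPM per kb, ahead of ID1 at 9.79 ± 1.85, ID2 at 2.86 ± 0.404 and ID4 at 1.20 ± 0.108. At 10 nM ID2 led with 21.5 ± 9.66 CPM per kb, ahead of ID3 at 5.49 ± 2.37, ID1 at 1.63 ± 0.106 and ID4 at 0.584 ± 0.0596. At 10 nM for 18 h ID3 (7.12 ± 0.476 CPM per kb) and ID2 (5.58 ± 2.83) differed by less than the SD of ID2.

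**Figure D4:**
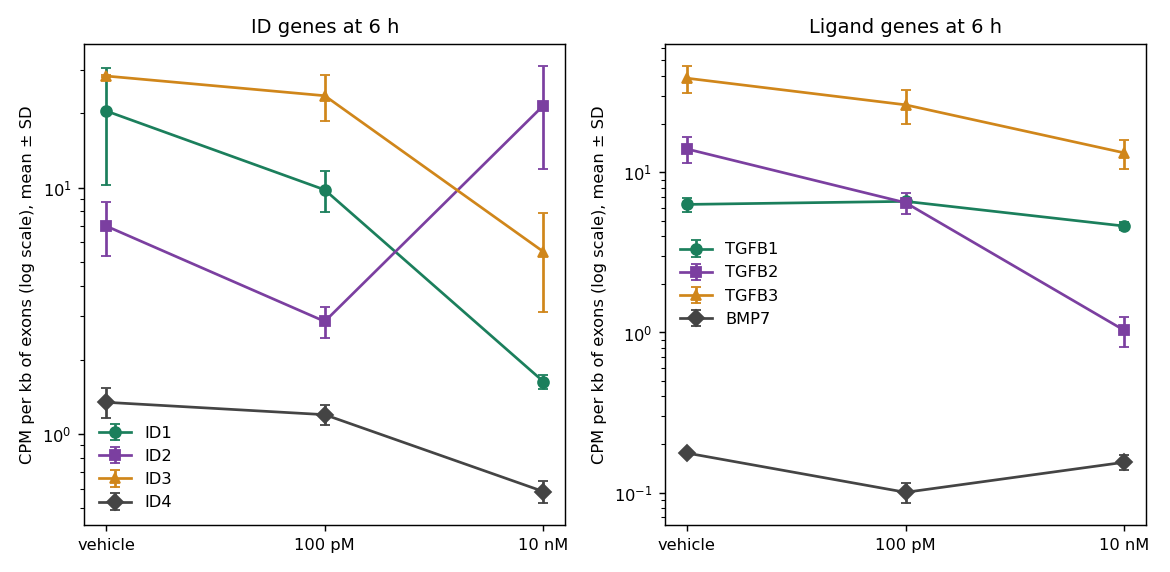
Mean level in CPM per kb of exons (y axis, log scale) with SD (n = 2) at 6 h by dose (x axis), for the 4 ID genes (left) and the 4 ligand genes (right). The ID2 line crosses those of ID1 and ID3 between 100 pM and 10 nM, and the TGFB2 line drops from above TGFB1 in vehicle to below it at 10 nM.

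Both inhibitory SMAD genes fell at 10 nM, and SMAD7 alone was called at 100 pM as well. Whether their dose patterns differ was not tested. SMAD6, which mainly blocks BMP receptors, measured 9.62 and 10.3 CPM in vehicle, 5.02 and 6.94 CPM at 100 pM and 2.27 and 2.57 CPM at 10 nM for 6 h. At 18 h it measured 7.97 and 10.9 CPM in vehicle, 3.89 and 7.29 CPM at 100 pM and 2.04 and 3.88 CPM at 10 nM. The 3 levels did not overlap at 6 h, and at 18 h the highest 10 nM library lay just under the lowest 100 pM library. At 10 nM the fall was 4.12-fold at 6 h (-2.04 ± 0.38, edgeR adjusted p = 0.00272) and 3.19-fold at 18 h (-1.68 ± 0.37, adjusted p = 0.00876). The 18 h call was lost without 10 nM 1 (adjusted p = 0.0544) and without vehicle 3 (0.0518). At 100 pM SMAD6 was at -0.74 ± 0.36 at 6 h (adjusted p = 0.503) and -0.76 ± 0.36 at 18 h (adjusted p = 0.229), which became -0.76 (adjusted p = 0.0163) and -0.78 (adjusted p = 0.00667) with the replicate block. Like TGFB3, SMAD6 was higher in replicate 3 than in replicate 1 of every group.

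SMAD7, which blocks TGF-beta and BMP receptors and brings ubiquitin ligases to them, fell to about the same level at both doses. It measured 17.5 and 18.9 CPM in vehicle, 11.8 and 10.7 CPM at 100 pM and 11.3 and 9.48 CPM at 10 nM for 6 h. The values for 18 h were 16.4 and 17.7 CPM in vehicle, 9.69 and 9.06 CPM at 100 pM and 8.90 and 10.7 CPM at 10 nM. Every treated library lay below every vehicle library, and the 2 doses overlapped at both times. Against vehicle SMAD7 fell by 0.80 ± 0.14 on the log2 scale at 10 nM at both times (edgeR adjusted p = 0.00167 at 6 h and 0.00217 at 18 h). At 100 pM it fell by 0.68 ± 0.14 at 6 h (adjusted p = 0.0276) and by 0.86 ± 0.14 at 18 h (adjusted p = 0.00557). The call at 100 pM for 6 h was lost without 100 pM 1 (adjusted p = 0.114), without 100 pM 3 (0.199), without vehicle 1 (0.109), without vehicle 3 (0.195) and with 6 h alone (0.0874). With the replicate block it held (log2 fold change -0.68, edgeR adjusted p = 0.00240). The other 3 SMAD7 calls held in every alternative run.

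The comparison of 10 nM with 100 pM asks whether the higher dose adds to the lower. At 6 h 7 of the 10 genes were lower at 10 nM and 1, ID2, was higher, where 16.8% of tested genes were lower and 20.1% higher. ID2 was 7.52-fold higher at 10 nM than at 100 pM (2.91 ± 0.49, edgeR adjusted p = 0.00198), a call that held in every alternative run. TGFB2 was 6.26-fold lower (-2.65 ± 0.23, adjusted p = 5.90e-05) and ID3 4.30-fold lower (-2.10 ± 0.27, adjusted p = 0.000450), also in every alternative. ID1 (-2.58 ± 0.68), SMAD6 (-1.30 ± 0.38), ID4 (-1.04 ± 0.28), TGFB3 (-0.996 ± 0.24) and TGFB1 (-0.51 ± 0.15) were lower too (adjusted p 0.0124 to 0.0283). Of the 8 calls, 6 were left without 100 pM 1, 3 without 100 pM 3, 3 without 10 nM 1 and 4 without 10 nM 3. TGFB1 and ID4 lost theirs whichever of the 4 libraries was omitted (0.0580 to 0.131). ID1 and SMAD6 lost theirs without 100 pM 3, 10 nM 1 or 10 nM 3 (0.0709 to 0.145), and TGFB3 without 100 pM 3 or 10 nM 1 (0.101 and 0.0891). SMAD7 differed by -0.12 ± 0.14 between the doses (adjusted p = 0.539, 95% interval -0.43 to 0.19) and BMP7 by 0.62 ± 0.48 (interval -0.46 to 1.71).

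At 18 h 5 of the 10 were lower at 10 nM than at 100 pM and none was higher, where 11.4% of tested genes were lower and 14.8% higher. TGFB2 was 4.83-fold lower (-2.27 ± 0.23, edgeR adjusted p = 0.000208), TGFB3 3.64-fold lower (-1.86 ± 0.25, adjusted p = 0.000883) and ID3 2.98-fold lower (-1.58 ± 0.26, adjusted p = 0.00273), in every alternative run. TGFB1 was lower by 1.57-fold (-0.65 ± 0.15, adjusted p = 0.0149), a call lost without 100 pM 1 (0.0868) and without 10 nM 3 (0.0709). ID1 was lower by 5.22-fold (-2.38 ± 0.70, adjusted p = 0.0352), which became -1.14 (adjusted p = 0.269) without 100 pM 3 and -3.05 (0.0108) without 100 pM 1, and the call was also lost without 10 nM 1 (0.169), without 10 nM 3 (0.104) and with 18 h alone (0.0863). SMAD6 was at -0.92 ± 0.37 (adjusted p = 0.107), and was called with the replicate block (adjusted p = 0.00312), without 100 pM 1 (-1.30, 0.0457) and without 10 nM 3 (-1.48, 0.0492), and it was -0.40 (0.542) without 100 pM 3. The differences of ID2 (0.58, interval -0.48 to 1.65), ID4 (-0.50, interval -1.14 to 0.14), SMAD7 (0.06, interval -0.25 to 0.37) and BMP7 (0.08, interval -0.95 to 1.11) did not pass the test.

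Whether the effect of a dose differed between 18 h and 6 h was tested directly. No member passed for 100 pM, where 0.0144% of tested genes had a lower and 0% a higher effect at 18 h, or for 10 nM, where the shares were 5.99% and 4.55%. By an unadjusted p under 0.05 in edgeR there was 1 member at each dose. Over all tested genes that count was 988 at 100 pM and 3628 at 10 nM. DESeq2 called 0 members at 100 pM and 1 at 10 nM, and over all genes 107 and 2308. The replicate block called 2 members at each dose, and over all tested genes 777 and 4863. The DESeq2 call was ID2, whose 10 nM effect was lower by 2.07 ± 0.65 on the log2 scale at 18 h in edgeR (difference -2.07, adjusted p = 0.0807, against 0.0112 in DESeq2 and 0.0521 with the block). With the block the TGFB2 effect was more negative at 18 h, by -0.98 at 100 pM (adjusted p = 0.00336) and -0.61 at 10 nM (0.0162). Without it these differences were -0.99 ± 0.29 (adjusted p = 0.520) and -0.62 ± 0.31. TGFB3 had differences of 0.58 at 100 pM (adjusted p = 0.00663) and -0.31 at 10 nM (0.0275) with the block, and 0.57 ± 0.34 (adjusted p = 0.838) and -0.30 ± 0.34 without it. In vehicle no member differed between 18 h and 6 h in edgeR, DESeq2 or with the block, none had an unadjusted p under 0.05, and 0% of tested genes were called in either direction (178 at an unadjusted p under 0.05, 0 by DESeq2 and 4 with the block).

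Other genes of the pathway were taken from 8 lists of 119 genes in all, some on more than 1 list. Of 15 tested receptor genes, 4 rose and 2 fell at 10 nM for 6 h (26.7% and 13.3%, against 22.6% and 19.4% of all tested genes), and 4 rose and 1 fell for 18 h (26.7% and 6.67%, against 19% and 15.2%). These shares lie near the background, and the median log2 fold change of the receptor genes was 0.11 at 6 h and 0.45 at 18 h. ACVR1, a type I receptor for BMPs, rose (1.23 ± 0.14 at 6 h and 1.67 ± 0.15 at 18 h), as did TGFBR1, the type I receptor for TGF-beta (1.23 ± 0.12 and 0.52 ± 0.12). BMPR1B, a BMP type I receptor, fell to 0.588 ± 0.126 CPM at 10 nM for 6 h, against 9.17 ± 3.76 CPM in vehicle (-3.96 ± 0.53, and -2.52 ± 0.49 at 18 h), and BMPR1A, another, fell slightly at 6 h (-0.49 ± 0.07) and was at -0.05 ± 0.07 at 18 h (adjusted p = 0.632). The edgeR adjusted p of the 7 changes called were 5.48e-05 to 0.0102. The TGFBR1 call at 18 h was lost without 10 nM 1 (0.0711) and without vehicle 1 (0.0669). At 18 h the receptor count of 5 was 3 without 10 nM 1, 8 by DESeq2 and 10 with the replicate block.

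Among the 6 SMADs that carry the signal, SMAD3, which acts downstream of TGF-beta, fell in all 4 comparisons with vehicle. At 10 nM 2 of the 6 fell and none rose at each time (33.3%, against 19.4% of all tested genes lower at 6 h and 15.2% at 18 h), with medians of -0.25 and -0.27. Its 6 h level averaged 38.7 ± 0.442 CPM in vehicle, then 22.7 ± 0.461 CPM with 100 pM and 13.6 ± 0.193 CPM with 10 nM (SD, n = 2). Relative to vehicle it changed by -1.51 ± 0.15 at 10 nM and -0.77 ± 0.14 at 100 pM for 6 h, and by -0.97 ± 0.14 and -0.68 ± 0.14 for 18 h (log2 fold change, edgeR adjusted p 7.84e-05 to 0.0198). At 100 pM the 6 h call was lost without each of the 4 libraries in turn (adjusted p 0.0908 to 0.121), and the 18 h call without 100 pM 3 (0.115), without vehicle 1 (0.132) and with 18 h alone (0.0997). SMAD1, which acts downstream of BMPs, was at -0.35 ± 0.11 at 6 h and -0.37 ± 0.12 at 18 h at 10 nM (adjusted p = 0.0350 and 0.0375). Its 6 h call was lost without each of the 4 libraries (0.0843 to 0.151), with 6 h alone (0.0540) and with no filter on low counts (0.0505), and its 18 h call without 10 nM 1 (0.187), without vehicle 1 (0.218) and with 18 h alone (0.0950).

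Outside the cell, 10 of 30 other genes listed as ligands were expressed enough to test. At 10 nM 1 rose and 3 fell at 6 h (10% and 30%, against 22.6% and 19.4% of all tested genes), and 2 rose and 2 fell at 18 h (20% each, against 19% and 15.2%), with medians of -0.42 and 0.17. The number called is near the background at both times. BMP1, 1 of the 2 that rose at 18 h (0.77 ± 0.15, edgeR adjusted p = 0.00489), encodes a protease despite its name. The shares and medians of this list therefore include a gene that is not a ligand. INHBB, an activin and inhibin subunit, rose at 10 nM (1.58 ± 0.22 at 6 h, edgeR adjusted p = 0.000562, and 0.73 ± 0.21 at 18 h, 0.0296), and the later call was lost without 10 nM 1 (0.179), without vehicle 1 (0.0746) and without vehicle 3 (0.143). BMP4, a BMP ligand, was at -1.20 ± 0.37 and -1.21 ± 0.37 (0.0289 and 0.0340), calls lost without 10 nM 1, 10 nM 3 or vehicle 3 at each time (0.0677 to 0.190) and with 18 h alone (0.0598). The 4 ligand calls at 6 h were 2 without 10 nM 1, 1 without 10 nM 3 and 2 without vehicle 1, and the 4 at 18 h were 1 without 10 nM 1, 2 without 10 nM 3, 2 without vehicle 1 and 2 with 18 h alone. Of 15 extracellular activators and antagonists, 2 rose and 3 fell at 10 nM for 6 h (13.3% and 20%, against 22.6% and 19.4% of all tested genes, and 10 calls with the replicate block), and 4 rose and 5 fell for 18 h (26.7% and 33.3%, against 19% and 15.2%, and 5 calls without 10 nM 3). Their medians were -0.39 and -0.18. CHRD, a secreted BMP antagonist, fell (-1.48 ± 0.28 and -2.81 ± 0.31), and TWSG1, which binds BMPs with it, rose (0.75 ± 0.10 and 0.95 ± 0.10, adjusted p 0.000132 to 0.00297 for the 4). CHRD was itself low, at 0.411 ± 0.054 CPM at 10 nM for 18 h (SD, n = 2). LTBP1, also on this list, fell at 18 h, with log2 fold changes of -1.29 ± 0.22 at 100 pM and -1.49 ± 0.22 at 10 nM (edgeR adjusted p = 0.00769 and 0.00102). At 6 h LTBP1 was not called at either dose (-0.34 ± 0.22 and -0.08 ± 0.22). Its call at 100 pM for 18 h was lost without 100 pM 3 and without vehicle 1. The next 4 genes of this list were chosen here after their values were seen. FSTL1 and FSTL3 fell at 10 nM for 18 h (-2.82 ± 0.42 and -1.01 ± 0.23, edgeR adjusted p = 0.00111 and 0.00939). A pair of antagonists of low count went the other way from CHRD. NOG, which blocks BMPs, rose at 10 nM, with 36 and 32 counts against 4 and 1 in vehicle at 6 h (adjusted p = 0.00114) and 20 and 21 against 2 and 0 at 18 h (0.00237). FST, which binds activins, had 19 and 29 counts at 10 nM for 18 h, against 1 and 4 in vehicle (0.0155), a call lost without 10 nM 3 (0.0708) and without vehicle 1 (0.0994).

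THBS1, thrombospondin 1, which can release TGF-beta from its latent form, rose at the lower dose alone. Its 6 h level averaged 153 ± 16.7 CPM in vehicle, then 645 ± 93.1 CPM with 100 pM and 178 ± 16.4 CPM with 10 nM, and 148 ± 8.06, 456 ± 46.5 and 171 ± 28.3 CPM at the same doses for 18 h (SD, n = 2). Against vehicle the changes at 100 pM were 2.07 ± 0.16 at 6 h and 1.63 ± 0.16 at 18 h (edgeR adjusted p = 0.000192 and 0.000500), and at 10 nM 0.21 ± 0.15 at both times (0.305 and 0.324). The doses themselves differed, with 10 nM lower by 1.86 ± 0.16 at 6 h and 1.41 ± 0.16 at 18 h on the log2 scale (log2 fold changes -1.86 and -1.41, adjusted p = 5.34e-05 and 0.000322).

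Of 13 genes listed as intracellular inhibitors, 3 rose and 4 fell at 10 nM for 6 h (23.1% and 30.8%, against 22.6% and 19.4% of all tested genes). At 18 h 3 rose and 5 fell (23.1% and 38.5%, against 19% and 15.2%), a count of 8 that became 4 without any 1 of the 4 libraries and 5 with 18 h alone. The medians of the list were -0.13 and -0.20. USP15, 1 of the 5 that fell at 18 h (-0.20 ± 0.07, edgeR adjusted p = 0.0483), is known to promote TGF-beta signalling. The list is therefore not made of inhibitors alone. NEDD4L, a ubiquitin ligase that acts on SMADs and receptors, rose in all 4 comparisons (1.04 ± 0.07 and 1.07 ± 0.07 at 100 pM for 6 h and 18 h, and 0.50 ± 0.07 and 1.02 ± 0.07 at 10 nM). TGIF1, a repressor that binds SMADs, rose at 10 nM (1.81 ± 0.26 and 1.55 ± 0.26). PMEPA1, a TGF-beta target that feeds back on the pathway, fell there (-0.90 ± 0.08 and -0.89 ± 0.08). The edgeR adjusted p of these 8 changes were 2.05e-05 to 0.00202.

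Genes that TGF-beta or BMP can induce did not move one way. Of 13 tested TGF-beta induced genes, 3 rose and 8 fell at 10 nM for 6 h (23.1% and 61.5%, against 22.6% and 19.4% of all tested genes, and 7 calls without 10 nM 3), and 2 rose and 4 fell for 18 h (15.4% and 30.8%, against 19% and 15.2%, and 10 calls with the replicate block). Their medians were -0.90 and -0.53. Among them SNAI1, a repressor of epithelial genes, rose to 3.77 ± 0.367 CPM at 10 nM for 6 h, against 0.422 ± 0.165 CPM in vehicle (3.15 ± 0.40, edgeR adjusted p = 0.000315, and 2.57 ± 0.44 at 18 h, 0.00210), and CDKN1A, a cell cycle inhibitor, rose too (1.08 ± 0.15, 0.000518, and 1.64 ± 0.15 at 18 h, 7.12e-05). JUNB, a transcription factor of the AP-1 family, fell at 6 h (-1.79 ± 0.21, 0.000245), as did SKIL, a SMAD corepressor (-0.72 ± 0.10, 0.000448). At 18 h JUNB was at -0.53 ± 0.21 (adjusted p = 0.0803) and SKIL at 0.06 ± 0.10 (0.655), and the 10 nM effect at 18 h was higher than at 6 h by 1.27 ± 0.29 for JUNB (0.0308) and 0.79 ± 0.14 for SKIL (0.0112). The JUNB difference lost its call when any 1 of the 8 libraries but 10 nM 1 of 18 h was left out (0.0525 to 0.0919), and the SKIL difference without vehicle 1 of 18 h (0.0519). Of 10 tested BMP induced genes, 2 rose and 5 fell at 10 nM for 6 h (20% and 50%, against 22.6% and 19.4% of all tested genes), and 3 fell and none rose for 18 h (30%, against 15.2% lower and 19% higher, and 5 calls with the block), with medians of -0.57 and -0.14. GATA3, a luminal transcription factor also among the luminal markers, fell (-1.64 ± 0.10 at 6 h, adjusted p = 7.73e-06, and -1.56 ± 0.10 at 18 h, 1.35e-05). MSX2, a homeobox factor, fell at 10 nM for 6 h (-1.07 ± 0.15, 0.000508) and rose at 100 pM for 18 h (1.02 ± 0.15, 0.00344). At 100 pM for 6 h MSX2 (0.74 ± 0.14), MSX1 (1.65 ± 0.33) and GATA2 (0.73 ± 0.16) rose (adjusted p 0.0254 to 0.0412) and none fell. That is 30% of the list, against 2.88% of all tested genes higher, with a median of 0.66. All 3 calls were lost without any 1 of the 4 libraries. At 100 pM for 18 h MSX2 and GATA2 rose and GATA3 fell (20% and 10%, against 6.57% and 3.89% of all tested genes), with a median of 0.38. The GATA2 call there was lost without any 1 of the 4 libraries, and the GATA3 call without 100 pM 3 or either vehicle library. MSX1 and GATA2 were the 2 that rose at 10 nM for 6 h (2.26 ± 0.33, 0.000702, and 1.16 ± 0.16, 0.000476).

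The partners of the ID proteins were few. Of 5 tested E proteins and other helix-loop-helix factors, 3 fell at 10 nM for 6 h and 2 for 18 h (60% and 40%, against 19.4% and 15.2% of all tested genes, and 4 calls at 18 h with the replicate block), and none rose. Their medians were -1.04 and -0.40. TCF4, an E protein, fell to 0.0836 ± 0.0384 CPM at 10 nM for 6 h, against 2.44 ± 0.824 CPM in vehicle (-4.81 ± 0.62, edgeR adjusted p = 0.000370, and -2.80 ± 0.55 at 18 h, 0.00431). ASCL2, a tissue-restricted partner of E proteins, fell at both times (-1.04 ± 0.20 and -1.50 ± 0.20, adjusted p = 0.00300 and 0.000604), and HES1, a Notch target, at 6 h (-1.09 ± 0.16, 0.000867, and -0.40 ± 0.16 at 18 h, 0.0920).

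**Figure D5:**
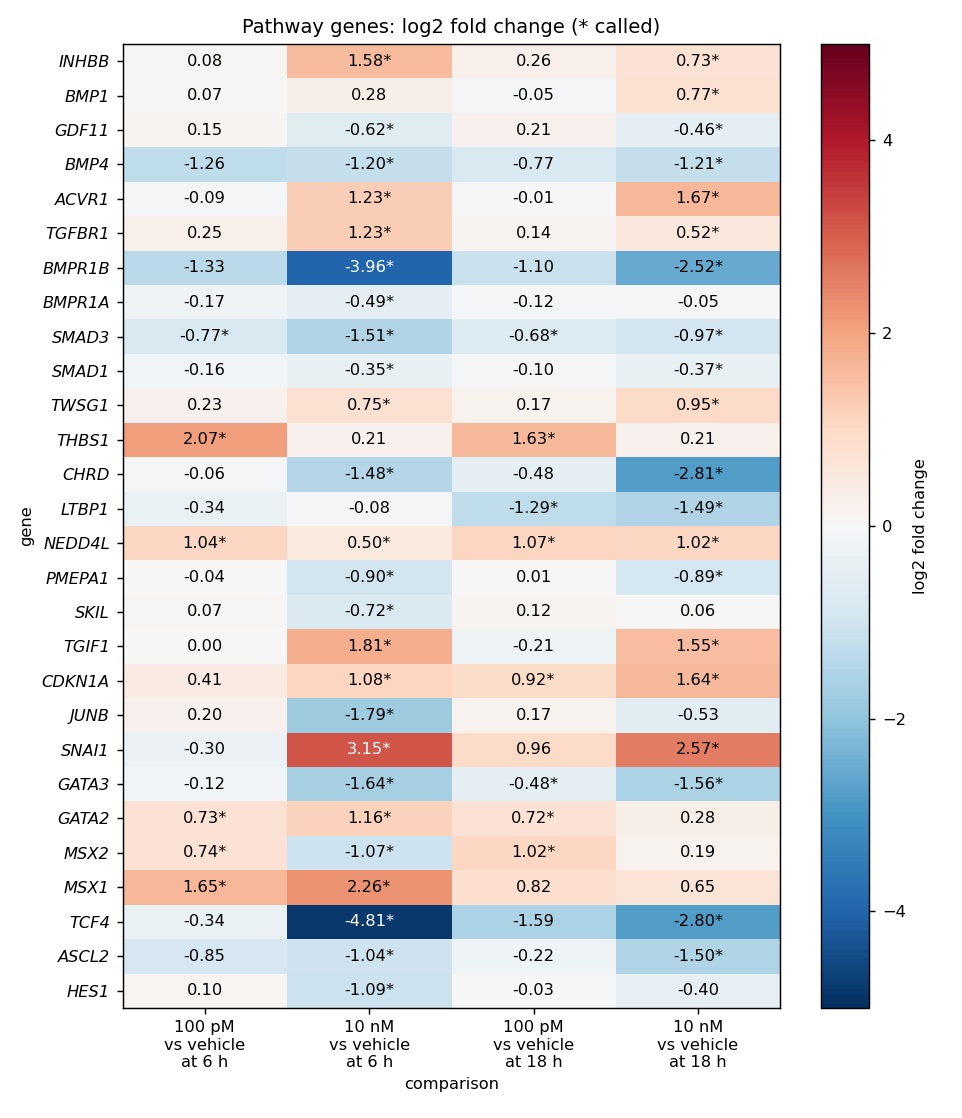
Log2 fold change against vehicle (colour and printed value) of the 28 pathway genes named by rule (y axis) in 4 comparisons (x axis), where a star marks an edgeR adjusted p under 0.05. SMAD3 and NEDD4L are marked in all 4 columns, and THBS1 in the 100 pM columns only.

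Across the 12 libraries ID1 went most closely with SMAD6 among the members (Pearson r of log2 CPM 0.952), and TGFB2 with ID3 (0.938) and ID1 (0.926). ID2 gave r between -0.449 and 0.329 with the other members. The points share dose, time and library, so these values describe the pattern only. Over all compared genes the nearest to ID1 was OAT (0.981), to ID3 RARA (0.987), to TGFB2 TMPRSS13 (0.991), to TGFB3 FLT4 (0.981) and to SMAD7 MKX (0.966). The nearest to ID2 was OLFM1 (0.952), to SMAD6 PDE4DIP (0.974), to TGFB1 EBF4 (0.970) and to ID4 ZNF329 (0.944).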

How the data were processed

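Total RNA from 12 Nextera libraries was measured. The deposited table holds raw counts of reads per gene symbol, which the authors made with STAR on hg19, per the labels. DESeq2 is also named, with no role, and neither versions nor the counter, annotation or strand setting are stated there. All 12 columns were used, and 2709 of 20114 genes had no count.

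The counts were analysed in R 4.3.3 with edgeR 4.0.16 and, as an alternative, DESeq2 1.42.0. The filter on low counts (filterByExpr) left 13872 genes, TMM set the scaling, and 1 quasi-likelihood fit with a coefficient per group (6 residual degrees of freedom) was tested with Benjamini-Hochberg adjustment over all tested genes. Levels are CPM on TMM-scaled library sizes, and log2 CPM for correlations used a prior count of 2. The lowest count of a member in a library was 18, and the counts carry no molecular identifiers.

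The members and lists were chosen with earlier results of these data known. Named were all members, up to 4 called genes per list with the smallest adjusted p against vehicle, of which the text describes some, and the genes most like each member called against vehicle (3 were found per member, of 13654 compared, and the text gives the nearest).

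Libraries with the same replicate number deviated together (r 0.464 to 0.677 across genes, median 0.558 over 15 pairs of groups). What a number stands for is not labelled, and a fit blocked on it is an alternative. Its biological coefficient of variation was 0.0678, against 0.163 without it. Replicate pairs gave chi-square values of 43 to 65 per degree of freedom, so no pair is 1 library deposited again. Other alternatives were DESeq2, RLE scaling, no filter on low counts, the 6 libraries of 1 time alone and leaving out each library, where a group reduced to 1 library borrows its spread from the rest. Promoter windows came from RefSeq (9 of 10 members matched).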

Additional observations from a re-analysis of the deposited data

How the results depend on the processing

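No value of a called member changed direction. Of 860 recomputed member values, 757 kept direction and side of the threshold, 45 lost a call, 15 gained one and 43, none called, changed direction. With the replicate block the members called became 4 (2 without it) at 100 pM for 6 h and 5 (2) at 18 h, and 2 (0) for the difference between times at each dose. DESeq2 gave 1 (0) for that difference at 10 nM, and 6 h alone gave 0 (2) at 100 pM. Leaving out 1 library gave 0 to 1 members at 100 pM for 6 h and 3 to 6 (of 8) for 10 nM against 100 pM at 6 h. Fewer libraries leave fewer degrees of freedom, and the cause of the other moves was not tested.

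Directions changed as follows, given as log2 range when 1 library was left out. For the difference of effects between times at 10 nM they were SMAD7 -0.15 to 0.13, ID3 -0.22 to 0.70, ID4 -0.19 to 0.46, SMAD6 -0.18 to 0.76, BMP7 -0.19 to 1.21 and ID1 -1.31 to 0.092. At 100 pM they were SMAD6 -0.54 to 0.37 (0.0044 by DESeq2 and 0.0041 by RLE) and ID2 -0.26 to 0.64. In vehicle over time they were TGFB1 -0.11 to 0.20, TGFB2 -0.027 to 0.476, TGFB3 -0.24 to 0.16, ID1 -0.61 to 0.79, ID2 -0.23 to 0.40, ID4 -0.17 to 0.48, SMAD6 -0.33 to 0.13 and BMP7 -0.92 to 0.47. For 10 nM against 100 pM they were SMAD7 -0.252 to 0.019 at 6 h and, at 18 h, SMAD7 -0.10 to 0.19, ID2 -0.056 to 1.10 and BMP7 -0.31 to 0.60. Against vehicle they were TGFB1 -0.038 to 0.172 at 100 pM for 6 h, TGFB3 -0.13 to 0.18 and BMP7 -0.45 to 0.94 at 100 pM for 18 h and BMP7 -0.38 to 1.02 at 10 nM for 18 h.

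The background moved too. Of all tested genes 483 were called at 100 pM for 6 h (836 by DESeq2, 1696 with the block) and 1450 at 18 h (2203 and 4728, and 655 with 18 h alone). Without 1 library they were 221 to 308 and 512 to 845. For 10 nM against vehicle at 18 h the 4734 calls were 7767 with the block, against 100 pM 5127 were 8231 at 6 h (3281 to 4242 without 1 library) and 3635 were 6958 at 18 h (2286 to 2900). For the difference between times 2 were 777 at 100 pM (107 by DESeq2, 5 with no filter, 1 by RLE, 0 without any 1 library) and 1462 were 4863 at 10 nM (2308 by DESeq2, 467 to 860 without 1 library). The alternatives for the pathway lists, NOG, FST, the marker genes and the JUNB and SKIL differences between times were chosen after seeing the data. Low counts limit BMP7 and ID4.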
